A study of Mus musculus with 24 samples.

Results

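The genes described here encode heat shock chaperones of the cytosol and the mitochondria together with the co-chaperones that work with them. The list held 40 genes, and each was read from probe sets that the array annotation assigns to 1 gene symbol, using for each gene its brightest probe set by the mean of the 24 arrays. Values were obtained for 38 of the 40 genes among 18193 genes on the array. Hsp90ab1 and Hsf1 had no probe set named by 1 symbol in that annotation and are not analysed here. The 38 genes had 98 such probe sets, 9 genes with 1 and 29 with 2 or more.

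The samples came from the cerebral cortex of adult mice heterozygous for a transgene that expresses an eGFP fusion of ribosomal protein L10a under the astrocyte promoter Aldh1l1. All animals, sleeping controls included, carried it. Pulling down the tagged ribosomes gave the bound fraction, and the supernatant gave the unbound fraction, which holds the RNA of the remaining cells. Sleeping mice were killed at 3 to 5 pm in the light phase, at the end of over 45 min of sleep and with at least 75% of the preceding 6 to 7 h asleep. Waking mice were killed at 3 to 5 am in the dark phase, at the end of over 1 h of wakefulness and with at least 70% of the preceding 6 to 7 h awake. Sleep-deprived mice had been awake for most of the dark phase and were then kept awake for 4 h of the light phase with unfamiliar objects. Each of the 18 bound arrays holds 1 animal (6 per state), whereas each of the 6 unbound arrays holds a pool of 3 animals (animals 1 to 3 or 4 to 6 of a state). Waking and sleep differ in time of day as well as in state, and the fractions also differ in the RNA isolation kit, so these cannot be told apart. Sleep deprivation and waking differ in the phase of the day and in the unfamiliar objects, which cannot be told apart from the kind of wakefulness either. Sleep deprivation and sleep differ in the unfamiliar objects as well as in state, and these cannot be told apart. The hour at which sleep-deprived mice were killed is not given here, so time of day may differ from sleep as well.

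Heat shock proteins bind unfolded or partly folded proteins and keep them from aggregating. Hsp70 proteins cycle between ATP and ADP forms: J proteins deliver substrates and start ATP hydrolysis, and Hsp110 and Bag proteins release the ADP. Hsp90, with its own co-chaperones, finishes the folding of kinases and steroid receptors, small heat shock proteins hold clients without using ATP, and Hsp60 with Hsp10 folds proteins imported into mitochondria. Many of these genes are switched on by heat shock factors, which bind repeats of a short element in their promoters. In the cortex the stress-inducible forms are known to rise with prolonged wakefulness.

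All values are log2 RMA values (background-corrected and summarised per probe set), so 1 unit is a doubling. Differences and folds are given relative to the median gene of the same comparison, which lay at 0.09, 0.11 and 0.02 for waking against sleep, sleep deprivation against sleep and sleep deprivation against waking in the bound fraction. It lay at 0.30, 0.18 and -0.12 for the same comparisons in the unbound fraction, and at 0.16 for bound against unbound. "Rose", "fell", "higher" and "lower" are used for an adjusted p under 0.05 in a limma fit, with Benjamini-Hochberg adjustment over all 18193 genes, and each p rests on the difference before the median was taken off. Exactly tied values occurred in all 48 pairs of arrays from 1 group and in 0 of 228 pairs from different groups, so the 6 groups may have been normalized separately. If they were, state and fraction cannot be told apart from the run. The pull-down matched its label: 12 of 12 astrocyte markers were higher and 11 of 12 neuronal markers lower in bound than in unbound arrays, and the mean of the astrocyte markers ran from 12.26 to 12.48 over bound arrays and from 9.08 to 9.58 over unbound ones. In bulk RNA, fewer cells of a type and less RNA per cell cannot be told apart.

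In the bound fraction, a small group of chaperone genes was higher after both spontaneous waking and sleep deprivation than in sleep, led by the Hsp110 gene Hsph1 and the Hsp90 co-chaperone gene Chordc1. Against sleep, 3 of 38 members rose and 0 fell in waking (Hsph1, Chordc1 and Hspa2), where 11.2% of all genes passed the test. In sleep deprivation 5 rose and 0 fell (the same 3 with Ahsa1 and Hspb8), where 14.3% of all genes passed. The shares of the members, 3 and 5 of 38, are near that background. The median difference of the 38 members was 0.06 in waking and 0.09 in sleep deprivation, against 0 for all genes by construction. Both comparisons use the same 6 sleep arrays.

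Hsph1, whose product (Hsp105) exchanges the nucleotide of Hsp70 and helps to dissolve aggregates, had the largest difference among the members past the test. Its bound sleep arrays lay at 9.54, 10.57 and 10.92 (lowest, median, highest), its waking arrays at 10.93, 11.30 and 11.69, and its sleep deprivation arrays at 11.02, 11.38 and 11.79. No sleep array reached a waking or a sleep deprivation array, although the nearest sleep and waking arrays differ by only about 0.01. Hsph1 rose 1.74-fold in waking (log2 0.80 ± 0.20 SE, adjusted p = 0.00667) and 1.81-fold in sleep deprivation (0.86 ± 0.20, adjusted p = 0.00276). The second Hsph1 probe set had differences of 0.60 ± 0.29 and 0.74 ± 0.29, with adjusted p = 0.144 and 0.0557 over all probe sets.

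Chordc1 encodes a zinc-binding partner of Hsp90. Its sleep arrays lay at 8.97, 9.39 and 9.54, its waking arrays at 9.46, 10.07 and 10.35, and its sleep deprivation arrays at 9.77, 10.003 and 10.50. Sleep deprivation did not overlap sleep, and in waking 1 array fell within the sleep range. The rise was 1.53-fold in waking (0.61 ± 0.18, adjusted p = 0.0149) and 1.57-fold in sleep deprivation (0.65 ± 0.18, adjusted p = 0.00706). Between sleep deprivation and waking, Hsph1 differed by 0.06 (95% interval -0.36 to 0.48) and Chordc1 by 0.03 (-0.34 to 0.41).

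Ahsa1, which encodes the activator of the Hsp90 ATPase, lay at 10.03, 10.12 and 10.31 in sleep, at 10.15, 10.52 and 10.78 in waking and at 10.46, 10.63 and 10.75 in sleep deprivation. Only the sleep deprivation arrays stood clear of the sleep arrays. By its brightest probe set Ahsa1 rose 1.29-fold in sleep deprivation (0.37 ± 0.11, adjusted p = 0.00422), and its waking difference was 0.23 ± 0.11 (adjusted p = 0.0613). Tested over all probe sets, both Ahsa1 probe sets passed in sleep deprivation (0.36 to 0.71). In waking 1 of the 2 passed, as higher (0.22 to 0.56).

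Hspa2 is an Hsp70 gene best known from male germ cells. It lay at 11.39, 11.67 and 11.91 in sleep, at 11.78, 12.15 and 12.42 in waking and at 11.82, 12.09 and 12.42 in sleep deprivation, so both ranges overlap that of sleep. Its rise was 1.29-fold in waking (0.37 ± 0.14, adjusted p = 0.034) and 1.24-fold in sleep deprivation (0.31 ± 0.14, adjusted p = 0.0434). Both calls were weak. The waking call was lost without any 1 of sleep arrays 1, 2, 3 and 4 and waking arrays 4, 5 and 6 (adjusted p 0.0561 to 0.079). The sleep deprivation call was lost without any 1 of sleep arrays 1 to 4, waking array 1 and sleep deprivation arrays 1, 2, 4, 5 and 6 (0.0501 to 0.0972).

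Hspb8 was the member that differed between sleep deprivation in the light phase and spontaneous waking in the dark phase, by its brightest probe set. It encodes the small heat shock protein that joins Bag3 in clearing damaged filament proteins. Its sleep arrays lay at 11.002, 11.23 and 11.39, its waking arrays at 11.07, 11.25 and 11.37, and its sleep deprivation arrays at 11.39, 11.56 and 11.71. The waking range lies inside that of sleep, and all 6 sleep deprivation arrays lie above all waking arrays. Hspb8 rose 1.2-fold in sleep deprivation against sleep (0.26 ± 0.09, adjusted p = 0.0106) and 1.24-fold against waking (0.31 ± 0.09, adjusted p = 0.0398), and differed by -0.05 ± 0.09 between waking and sleep (adjusted p = 0.857). It was, by the brightest probe sets, the 1 of 38 members past the test between sleep deprivation and waking, where 6.84% of all genes passed. That call was lost without any 1 of sleep array 3, waking arrays 1, 2, 3, 4 and 6 and sleep deprivation arrays 1, 2, 3, 4 and 6 (adjusted p 0.0502 to 0.0912). The other Hspb8 probe sets differed by 0.17 ± 0.27 and -0.03 ± 0.12 between sleep deprivation and sleep, neither past the test. Between sleep deprivation and waking, the 3 Hspb8 probe sets ran from -0.003 to 0.30, and 1 passed over all probe sets. In that comparison 1 of 3 Cryab probe sets (-0.45 to -0.19) and 1 of 4 of Hspa8 (-0.60 to -0.06) also passed, as lower.

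The stress-inducible Hsp70 genes Hspa1a and Hspa1b, nearly identical copies whose probes may not tell them apart, were dim in the bound arrays. Hspa1b lay at 2.76, 4.38 and 5.25 in sleep, at 4.36, 5.35 and 7.39 in waking and at 4.72, 5.31 and 6.29 in sleep deprivation, where the median of all probe sets over the bound arrays was 5.79. The ranges overlap, and the highest value belongs to 1 waking array (animal 6). The differences from sleep were 1.21 ± 0.47 (adjusted p = 0.0867) and 1.00 ± 0.47 (adjusted p = 0.133). The other Hspa1b probe sets, dimmer still, differed by 1.49 ± 0.22 and 1.04 ± 0.23 in waking and by 1.18 ± 0.22 and 1.01 ± 0.23 in sleep deprivation, each past the test over all probe sets (adjusted p 0.00012 to 0.00307). Hspa1a, with 1 probe set, differed by 0.39 ± 0.37 and 0.58 ± 0.37 (adjusted p = 0.509 and 0.255).

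None of the 5 mitochondrial members, the 3 Bag members, the 8 J proteins, the 1 measured Hsp90 gene and the heat shock factor gene Hsf2 passed the test against sleep in the bound fraction in the fit without a block. That holds for the brightest probe set of each gene. Other probe sets passed in the bound fraction, with p-values adjusted over all probe sets: a dim one of Hspa9 (0.91 ± 0.11 in waking, 0.83 ± 0.11 in sleep deprivation), a dim one of Dnajb6 (1.07 ± 0.13 and 0.90 ± 0.13), a brighter one of Dnajb6 in sleep deprivation (0.28 ± 0.13), one of Dnajb5 (0.40 ± 0.14 and 0.65 ± 0.14) and one of Dnaja4 in sleep deprivation (0.36 ± 0.15). Among the co-chaperone and Hsp70 genes, a second probe set of Cdc37 (0.69 ± 0.24 and 1.23 ± 0.24) and of Hspa8 (0.29 ± 0.07 and 0.23 ± 0.07) passed as well. In all, 3 of the 4 Hspa8 probe sets passed in waking (the 4 at 0.20 to 0.89) and 2 in sleep deprivation (0.09 to 0.29). Hsp90aa1 is the inducible cytosolic Hsp90. By its brightest probe set its 18 bound arrays ran from 11.90 to 12.15, and it differed from sleep by -0.11 (95% interval -0.27 to 0.06) in waking and by -0.10 (-0.27 to 0.06) in sleep deprivation, but another of its 5 probe sets rose in waking (0.31 ± 0.09, adjusted p = 0.00699 over all probe sets). The pair Hspd1 (Hsp60) and Hspe1 (Hsp10) also stayed close to sleep, with Hspd1 at -0.09 (-0.38 to 0.19) and -0.06 (-0.34 to 0.23) and Hspe1 at -0.00 (-0.15 to 0.15) and -0.10 (-0.25 to 0.05). Marker genes of red blood cells moved with state in the bound arrays: the mean of the 2 measured ones ran from 3.42 to 3.83 in sleep, 3.86 to 4.33 in waking and 4.17 to 4.63 in sleep deprivation, below the median of all probe sets. Their part in the chaperone differences was not tested.

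**Figure D1:**
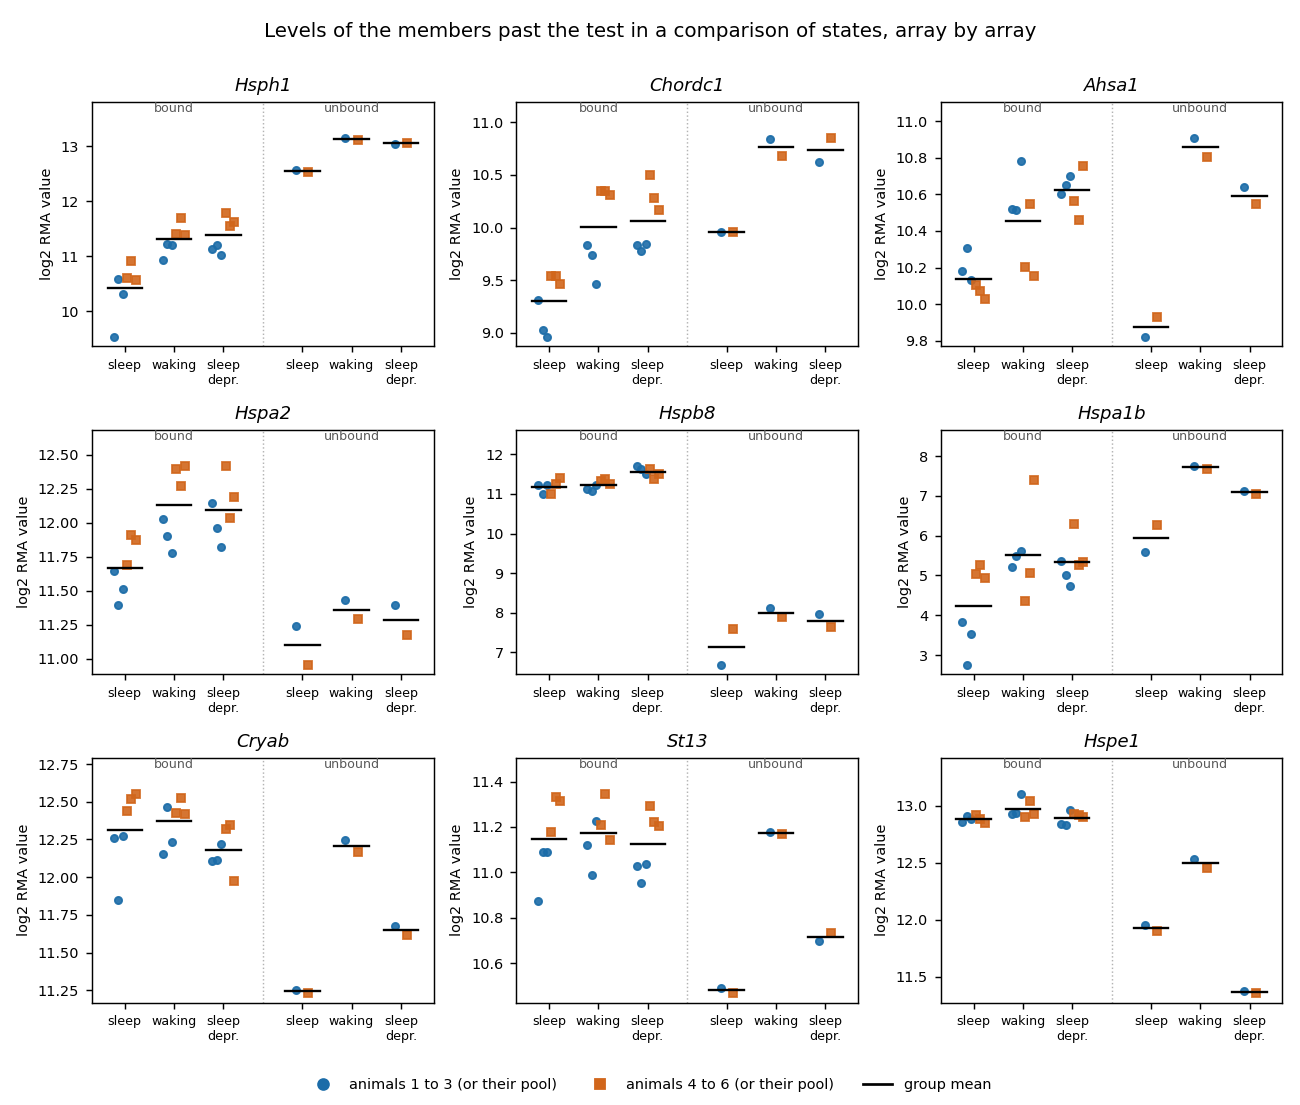
Level of 9 chaperone genes (log2 RMA value, vertical axis, with its own scale per gene) on each array, by fraction and state (horizontal axis). Circles are animals 1 to 3 or their pool, squares animals 4 to 6 or their pool, and black bars group means. In the bound fraction Hsph1 and Chordc1 lie higher in waking and sleep deprivation than in sleep, and Hspb8 lies higher in sleep deprivation than in waking, while in the unbound fraction Cryab, St13 and Hspe1 change with state and their bound levels stay nearly level.

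Whether the members hold the heat shock element was read from their promoters, since heat shock factors act there. RefSeq windows (GRCm38.p6, 250 bases before to 50 after each gene's start) were found for 32 of the 38 members. The element was searched on both strands as 2 inverted units, GAANNTTC or TTCNNGAA, and as 3 units, GAANNTTCNNGAA or TTCNNGAANNTTC, each of which contains the shorter ones. At least 1 match of 2 units was present in 17 of 32 members, against 17% of all 27025 genes with a window, and of 3 units in 5 of 32, against 0.662%. The 5 were Chordc1, Hsph1, Hspd1, Hspe1 and Dnajb6. The stretches shown run from 120 bases before the start to 30 after it, on the gene's own strand. Chordc1 and Hsph1 are shown because they rose in both states and have a 3-unit match. Hspa2 also rose in both states, but it had no match and is not shown. Also shown is Hspe1, whose promoter is shared head to head with Hspd1 and which did not rise in the bound fraction. Hspa1b is shown as a gene with only a 2-unit match. Capitals mark the matched elements.
Chordc1, chr9:18292147-18292296, plus strand: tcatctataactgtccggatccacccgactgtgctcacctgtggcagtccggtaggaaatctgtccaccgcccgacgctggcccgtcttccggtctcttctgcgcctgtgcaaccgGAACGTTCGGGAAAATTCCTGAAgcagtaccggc
Hsph1, chr5:149636286-149636435, minus strand: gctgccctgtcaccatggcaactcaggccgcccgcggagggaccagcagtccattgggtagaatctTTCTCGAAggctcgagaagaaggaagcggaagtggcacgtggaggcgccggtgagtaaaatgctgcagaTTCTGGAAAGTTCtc
Hspe1, chr1:55088028-55088177, plus strand: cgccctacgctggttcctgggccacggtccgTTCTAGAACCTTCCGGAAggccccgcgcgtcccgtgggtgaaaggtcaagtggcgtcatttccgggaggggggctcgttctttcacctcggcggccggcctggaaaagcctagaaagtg
Hspa1b, chr17:34959209-34959358, minus strand: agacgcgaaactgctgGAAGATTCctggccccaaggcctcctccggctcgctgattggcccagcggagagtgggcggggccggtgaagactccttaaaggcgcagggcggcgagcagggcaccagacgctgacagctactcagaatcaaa
In Chordc1 the run of elements spans the start itself (positions -4 to 19, counted without a position 0), in Hsph1 the 3-unit match lies just after the start shown (16 to 28; a second RefSeq start puts it at 37 to 49), and in Hspe1 it lies upstream (-89 to -72). Of the 5 members with a 3-unit match, Chordc1 and Hsph1 rose in both bound comparisons with sleep. Hspd1, Hspe1 and Dnajb6 passed neither without a block by their brightest probe sets, although other Dnajb6 probe sets passed. Of the members that rose, Ahsa1 and Hspa2 had no match in their windows and Hspb8 had a 2-unit match at 3 to 10. A match is a description of letters and shows no binding.

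Much of the spread within the bound groups followed the split between animals 1 to 3 and 4 to 6. Blocks that take it into account added chaperone genes to those past the test. The animal's number pairs different mice across states. Once the split was removed, the residuals of same-numbered arrays correlated at only -0.287 to 0.127. With the animal's number as a block, 11 members rose in waking (16.8% of all genes passed) and 14 in sleep deprivation (21.3%), with 0 lower in either, and the members that passed without the block all remained. Beside Hspa2, Hsph1, Chordc1 and Ahsa1, both lists then held Hspa8, the constitutive Hsp70 that uncoats clathrin vesicles, the J proteins Dnaja1, Dnajb4 and Dnajb5, Stip1, the adaptor that links Hsp70 to Hsp90, and Cdc37, which brings kinases to Hsp90. Waking added Hsf2, and sleep deprivation Hspb8, Hspa4, Dnajb6 and Bag3. Among the added genes, Hspa8 rose by 0.26 ± 0.07 in waking (adjusted p = 0.00725) and 0.20 ± 0.07 in sleep deprivation (adjusted p = 0.0106), and Stip1 by 0.28 ± 0.10 and 0.25 ± 0.10 (adjusted p = 0.0226 and 0.0222). Dnajb5 rose by 0.40 ± 0.13 (adjusted p = 0.0238) and 0.57 ± 0.13 (adjusted p = 0.00351). Hsf2 rose by 0.58 ± 0.19 in waking (adjusted p = 0.0332) by its brightest probe set. Without a block, the second Hsf2 probe set gave -0.15 in waking, and neither of the 2 passed over all probe sets. The difference of Hsf2 in waking and that of Dnajb5 in sleep deprivation are close in size to those of Chordc1 (0.61 and 0.65). Dnajb5 in waking lay below that of Chordc1. Hspb8 kept its difference between sleep deprivation and waking (adjusted p = 0.0426), where 10.5% of all genes passed. With only the split between animals 1 to 3 and 4 to 6 as a term, 12 members rose in waking (18.6% of all genes passed), Hspa1b among them, and 13 in sleep deprivation (22.5%).

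**Figure D2:**
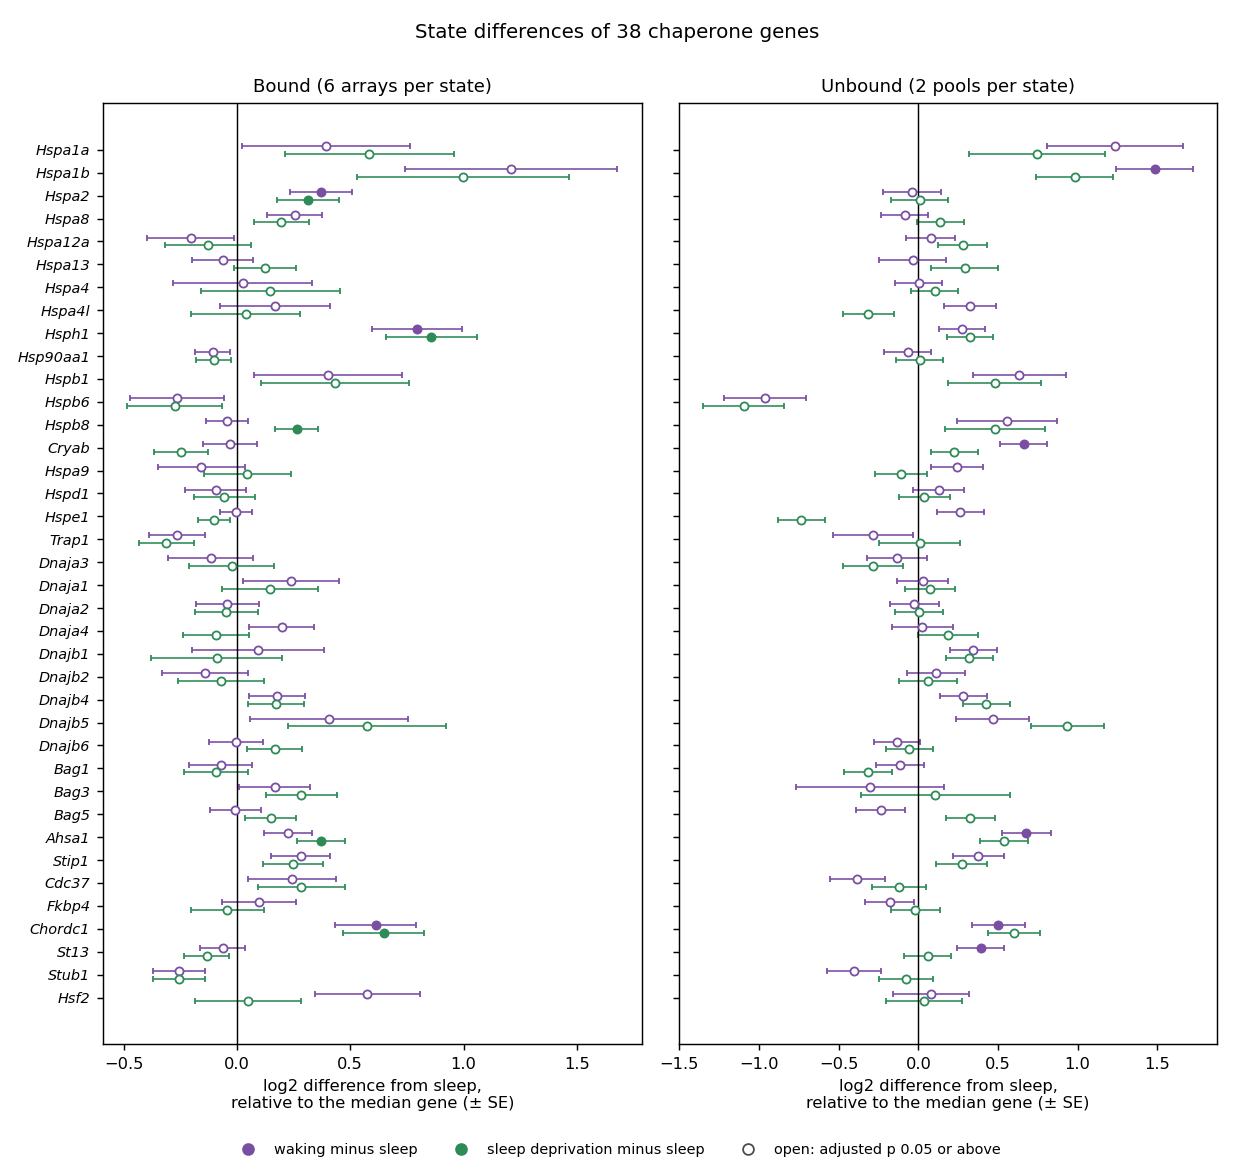
Difference of each of the 38 chaperone genes from sleep (log2, relative to the median gene, horizontal axis) in the bound fraction (left, 6 arrays per state) and the unbound fraction (right, 2 pools per state), in the fit without a block. Points are estimates with bars of 1 standard error, purple for waking and green for sleep deprivation, and filled points have an adjusted p under 0.05. Hsph1 and Chordc1 carry the 2 largest filled differences on the left, and Hspa1b carries the largest filled difference on the right, with wider bars.

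Animals 1 to 3 and animals 4 to 6 formed distinct levels in the bound fraction for many chaperone genes, in all 3 states alike. This comparison was added after the data had been seen, and the labels give no batch for these animals. In a fit with state as a term, 19 members were higher and 6 lower in animals 4 to 6, where 43.8% of all genes passed. Over all 18 bound arrays, the 2 sets did not overlap for 13 members (10 above and 3 below), against 12.4% of all genes. The difference between the sets was itself larger in bound than in unbound samples for Hspa4 (1.02 ± 0.11, adjusted p = 1.96e-06) and 13 other members, and more negative for 3, where 21.2% of all genes passed. Between the 2 unbound pools of the same animals, 0 members and 0 of all genes passed.

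Hspa4, a second Hsp110 gene, showed the clearest split. In sleep its animals 1 to 3 lay at 10.48, 10.60 and 10.37 and its animals 4 to 6 at 11.49, 11.50 and 11.42. Waking gave 10.40, 10.70 and 10.62 against 11.58, 11.72 and 11.52, and sleep deprivation 10.73, 10.70 and 10.69 against 11.83, 11.81 and 11.65. The sets were 1.02 ± 0.06 apart (adjusted p = 4.52e-10), many times its largest difference between states in the bound fraction (0.15 in sleep deprivation against sleep). Dnajb1, the J protein that serves stress-induced Hsp70, stood 0.92 ± 0.08 higher in animals 4 to 6 and Dnaja1 0.66 ± 0.06, whereas Dnajb5 stood lower (-1.11 ± 0.12), as did Hspb6 (-0.61 ± 0.09) and Cdc37 (-0.58 ± 0.08). The Gapdh control probe sets moved with the same split: their 3' minus 5' difference, a sign of RNA or labelling quality, ran from 0.31 to 0.46 in animals 1 to 3 and from 0.97 to 1.04 in animals 4 to 6, and from 1.34 to 1.75 in unbound arrays. That of the Actb controls overlapped between the sets, at -0.28 to -0.06 in animals 1 to 3 and -0.42 to -0.16 in animals 4 to 6. The mean of the neuronal markers, 9.73 to 10.36 against 9.84 to 10.06, overlapped. The part of RNA quality in the split was not tested. Within animals 1 to 3, Hsph1 differed from sleep by 0.88 ± 0.24 in waking (adjusted p = 0.0526) and 0.88 ± 0.24 in sleep deprivation (adjusted p = 0.0409), and within animals 4 to 6 by 0.70 ± 0.15 (adjusted p = 0.0308) and 0.83 ± 0.15 (adjusted p = 0.0137). Chordc1 passed the test in both sets and both states (adjusted p 0.0131 to 0.0492), and Hspa2 in neither set.

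**Figure D3:**
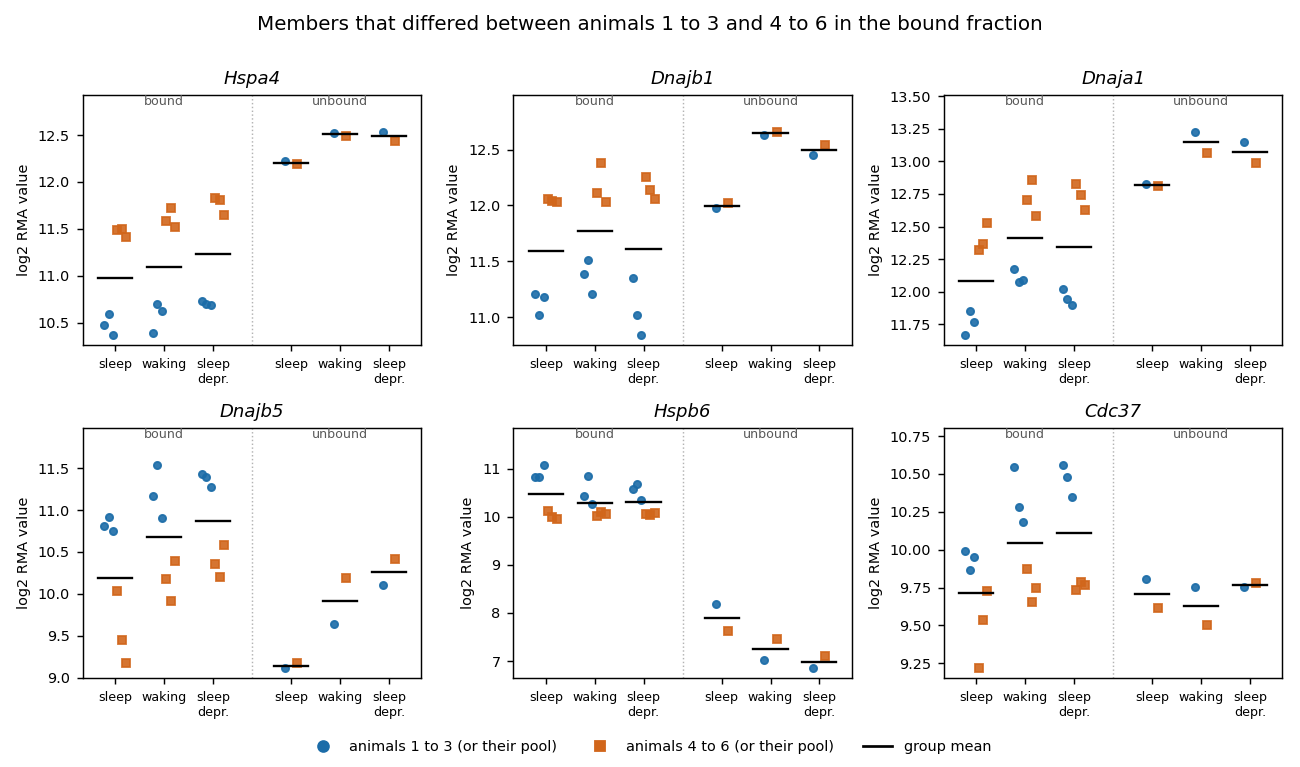
Level of 6 chaperone genes (log2 RMA value, vertical axis, own scale per gene) on each array, by fraction and state (horizontal axis). Circles are animals 1 to 3 or their pool, squares animals 4 to 6 or their pool, bars group means. In the bound fraction the squares of Hspa4, Dnajb1 and Dnaja1 lie above the circles in every state and those of Dnajb5, Hspb6 and Cdc37 lie below them, while the unbound pools of the same animals lie close together for Hspa4 and Dnajb1.

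In the unbound fraction, waking was accompanied by higher levels of Hspa1b, Cryab, Ahsa1, Chordc1 and St13. By the brightest probe set these 5 of 38 members rose against sleep and 0 fell, where 6.32% of all genes passed. Over all probe sets, 1 of 4 of Hspa8 (-0.09 to 2.48) and 1 of 3 of Dnajb5 (0.47 to 0.66) also passed, as higher. The median difference of the members was 0.08. In sleep deprivation 0 members passed in either direction by the brightest probe set, where 1.87% of all genes did, although 1 of the 3 Hspa1b probe sets passed. In the same limma fit 13 members had an unadjusted p under 0.05, as did 4610 of all 18193 genes. Under 3 of the other settings tried, 1 to 12 members passed. Each state had only 2 pools. Other measures moved with state in these pools: the red blood cell markers averaged 4.47 and 5.02 in sleep, 5.57 and 5.79 in waking and 5.12 and 5.25 in sleep deprivation. The endothelial markers averaged 4.03 and 4.24 in sleep, 4.74 and 4.88 in waking and 4.37 and 4.92 in sleep deprivation, and 2 of 6 rose in waking. The 3' minus 5' difference of the Actb controls averaged -0.09 in sleep, 0.02 in waking and -0.42 in sleep deprivation. That of the Gapdh controls averaged 1.61, 1.54 and 1.73. The part of these in the chaperone differences was not tested.

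Hspa1b gave 5.6 and 6.27 in the sleep pools, 7.75 and 7.69 in the waking pools and 7.13 and 7.06 in the sleep deprivation pools. The pools of a state lie close together outside sleep, and no pool of either waking state overlaps sleep. With 2 pools a state, waking and sleep did not overlap for 65.2% of all genes. Hspa1b rose 2.8-fold in waking (1.48 ± 0.24, adjusted p = 0.0315) and differed by 0.98 ± 0.24 in sleep deprivation (adjusted p = 0.0672). Over all probe sets, 2 of its 3 passed in waking (the 3 at 1.11 to 1.63) and 1 in sleep deprivation (0.98 to 1.37). Its copy Hspa1a gave 6.67 and 5.65 in sleep, 7.36 and 8.02 in waking and 7.45 and 6.71 in sleep deprivation, with a waking difference of 1.23 ± 0.43 (adjusted p = 0.075).

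Cryab encodes αB-crystallin, the small heat shock protein abundant in glia. It gave 11.25 and 11.23 in sleep, 12.24 and 12.17 in waking and 11.68 and 11.61 in sleep deprivation, in 3 separate steps. It rose 1.58-fold in waking (0.66 ± 0.15, adjusted p = 0.0355), and in the bound fraction its waking difference was -0.03 ± 0.12. Of its 3 probe sets, 2 passed as higher in unbound waking, and the 3 ran from -1.03 to 0.66. In bound waking 1 of the 3 passed as higher (-0.04 to 0.19). Ahsa1 gave 9.82 and 9.93 in sleep, 10.91 and 10.81 in waking and 10.64 and 10.55 in sleep deprivation, and rose 1.60-fold in waking (0.68 ± 0.15, adjusted p = 0.0355). Both waking states lie clear of sleep in this gene too, with the sleep deprivation difference at 0.54 ± 0.15 (adjusted p = 0.0701). These values are from the brightest Ahsa1 probe set. The second one pointed the other way, at -0.41 in waking and -0.22 in sleep deprivation, and passed in neither.

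Chordc1 gave 9.96 and 9.96 in sleep, 10.84 and 10.68 in waking and 10.62 and 10.85 in sleep deprivation. It rose 1.42-fold in waking (0.50 ± 0.16, adjusted p = 0.0459) and differed by 0.60 ± 0.16 in sleep deprivation (adjusted p = 0.0691). St13, whose product (Hip) holds Hsp70 in its ADP form, gave 10.49 and 10.47 in sleep, 11.18 and 11.17 in waking and 10.70 and 10.73 in sleep deprivation. It rose 1.31-fold in waking (0.39 ± 0.15, adjusted p = 0.048). Its other probe sets differed by 0.07 ± 0.17 and -0.06 ± 0.16 in waking. All 5 waking calls were lost when any 1 of the 6 pools was left out (adjusted p 0.0691 to 0.166) and when each array was centred on its median, whereas 19 members passed when the prior variance followed intensity.

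Hspe1, the Hsp10 partner of Hsp60, was the 1 member that differed between sleep deprivation and waking in the unbound fraction, where 0.759% of all genes passed. Its second probe set differed by -0.55 ± 0.18 (adjusted p = 0.117 over all probe sets). The pools of the brighter one gave 11.95 and 11.91 in sleep, 12.53 and 12.45 in waking and 11.38 and 11.36 in sleep deprivation, so that sleep deprivation lay lowest and waking highest. It was 2.00-fold lower in sleep deprivation than in waking (-1.0 ± 0.15, adjusted p = 0.0476), and this call was lost without any 1 of the 6 pools (adjusted p 0.124 to 0.201). Hspd1, which shares its promoter, gave 12.09 and 11.94 in sleep deprivation against 12.29 and 12.16 in waking.

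The effect of state was tested for a difference between the fractions. The waking effect was more negative in bound than in unbound samples for 3 of 38 members and more positive for 0, where 5.6% of all genes passed. These were Cryab (-0.69 ± 0.22, adjusted p = 0.018), St13 (-0.45 ± 0.18, adjusted p = 0.035) and Hspe1 (-0.26 ± 0.13, adjusted p = 0.0385). Each had risen or lain higher in the unbound waking pools and stayed near its sleep level in the bound arrays. A second bright probe set of Cryab gave -0.65 ± 0.19 (adjusted p = 0.00928 over all probe sets), and a dim one the opposite, 1.23 ± 0.18 (adjusted p = 0.0015). The other probe sets of St13 and Hspe1 passed for neither effect. Over all probe sets, 1 of 4 of Hspa8 passed as more negative in waking (-1.58 to 0.34) and 1 of 5 of Hspa9 as more positive (-0.40 to 0.96). By the brightest probe set, the effect of sleep deprivation was more positive in bound samples for Hspe1 alone among the members (0.63 ± 0.13, adjusted p = 0.0149). For this effect 4.89% of all genes passed. For Hsph1, which passed the test against sleep only in the bound fraction, the difference of the fractions' effects did not pass for either state.
Each pool holds the same animals as 3 bound arrays, which this fit treats as separate samples. With the bound arrays averaged per pool 0 members passed for either effect, so all 4 calls by the brightest probe sets were lost. They also leaned on single arrays. That of Cryab in waking was lost without any 1 of the sleep or waking pools (adjusted p 0.0592 to 0.085), and that of Hspe1 in sleep deprivation without any 1 of the sleep or sleep deprivation pools (0.0523 to 0.0824). St13 was lost without any 1 of those 4 sleep and waking pools, bound sleep array 6 and bound waking arrays 1 and 2 (0.0503 to 0.128), and Hspe1 in waking without any 1 of those 4 pools, bound sleep arrays 2, 3 and 4 and bound waking arrays 1, 2, 4 and 6 (0.0535 to 0.163).

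In bound against unbound samples 12 members were higher and 19 lower, where 42.2% of all genes were higher and 27.2% lower (69.4% in all). All 4 small heat shock genes were higher and all 3 Hsp110 genes lower. Of the Hsp70 genes 1 was higher and 4 lower, of the J proteins 1 and 5, of the mitochondrial members 2 and 2, of the Bag genes 1 and 1 and of the other co-chaperones 3 and 2, and Hsp90aa1 and Hsf2 were lower. For 13 members the bound and unbound arrays did not overlap at all, against 27.3% of all genes.

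Hspb8 was the member most enriched in astrocyte ribosomes. Its 18 bound arrays ran from 11.002 to 11.71 and its 6 unbound arrays from 6.69 to 8.12, an 11.4-fold difference (3.51 ± 0.10, adjusted p = 4.49e-18). Hspb6, a small heat shock protein of muscle and glia, ran from 9.95 to 11.07 against 6.86 to 8.18, a 7.03-fold difference (2.81 ± 0.17, adjusted p = 8.61e-13). Bag3, the partner of Hspb8, ran from 7.59 to 8.66 against 4.48 to 5.77, a 6.45-fold difference (2.69 ± 0.16, adjusted p = 1.46e-12). Its unbound mean of 5.21 lay below the median of all probe sets there (5.68), where a weak signal cannot be told from background in these values, so the fold has no exact size. Hspb1 (Hsp27) ran from 6.71 to 8.71 against 4.99 to 6.31, a 3.65-fold difference (1.87 ± 0.25, adjusted p = 3.97e-07). None of these 4 genes overlapped between fractions, and each was higher in bound samples in all 6 pairs of a pool with its own 3 animals. Cryab was higher by less, 1.35-fold (0.43 ± 0.09, adjusted p = 6.25e-06; a dim probe set was lower, -0.78 ± 0.07), and its ranges overlapped because the unbound waking pools at 12.24 and 12.17 reached into the bound range of 11.85 to 12.55. Markers of the meninges and fibroblasts were also higher in bound samples (5 of 5, mean 7.08 to 8.81 on bound and 6.30 to 6.86 on unbound arrays), and their part in the small heat shock differences was not tested.

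The genes depleted from the bound fraction were mostly those of the Hsp70 cycle. Hspa12a, a distant Hsp70 relative, ran from 7.47 to 8.62 in bound and from 10.11 to 10.69 in unbound arrays and was 6.34-fold lower in bound samples (-2.67 ± 0.14, adjusted p = 1.43e-12). Of the Hsp110 genes, Hspa4l was 4.11-fold lower (-2.04 ± 0.18, adjusted p = 8.52e-09), Hsph1 4.09-fold (-2.03 ± 0.15, adjusted p = 3.81e-10) and Hspa4 2.75-fold (-1.46 ± 0.23, adjusted p = 4.16e-05), and no array of 1 fraction reached the other in any of them. Hsp90aa1 ran from 11.90 to 12.15 against 12.94 to 13.24 and was 2.36-fold lower (-1.24 ± 0.06, adjusted p = 7.45e-13), although 1 of its 5 probe sets, a dim one, was higher (0.41 ± 0.17). A dim probe set of Hspa4 was also higher (0.28 ± 0.11). The inducible Hspa1b and Hspa1a were 4.14-fold and 3.49-fold lower (-2.05 ± 0.36 and -1.80 ± 0.30, adjusted p = 7.71e-05 and 5.01e-05), with overlapping ranges. Their bound means, 5.03 and 5.33, lay below the median of all probe sets (5.79), so these folds have no exact size either.

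Among the J proteins, Dnaja1, Dnaja2, Dnaja4, Dnajb1 and Dnajb6 were lower in bound samples by 0.62 to 0.96 on the log2 scale. The second probe set of Dnajb1 pointed the other way (0.24) and did not pass. Dnajb2 and Dnajb4 did not pass by their brightest probe sets (adjusted p = 0.623 and 0.152). Of the 3 Dnajb4 probe sets, 2 passed as lower over all probe sets, and the 3 ran from -1.08 to -0.23. Dnajb5 was higher by its brightest probe set (0.65 ± 0.27, adjusted p = 0.0104), while its other probe sets gave -0.74 ± 0.14 and -0.85 ± 0.10. Within the mitochondria, the Hsp10 gene Hspe1 was 1.77-fold higher (0.83 ± 0.05, adjusted p = 7.76e-13), with bound arrays at 12.83 to 13.10 and unbound arrays at 11.36 to 12.53, whereas its partner Hspd1 was 1.48-fold lower (-0.57 ± 0.10, adjusted p = 0.0015). The mitochondrial J protein Dnaja3 was lower (-0.61 ± 0.14, adjusted p = 0.00851), with a second, bright probe set higher (0.43 ± 0.14). Trap1, the mitochondrial Hsp90, was 1.09-fold higher (0.13 ± 0.11, adjusted p = 0.0213), a call lost without unbound waking pool 1 or sleep deprivation pool 2 (adjusted p = 0.11 and 0.144). The second probe set of Trap1 pointed the other way (-0.19) and did not pass. Hspa9 did not pass by its brightest probe set, but 3 of its 5 probe sets passed as higher, and the 5 ran from -0.24 to 1.54.

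Among the co-chaperones, Fkbp4 (FKBP52), which helps the steroid receptors mature on Hsp90, was 1.56-fold higher in bound samples (0.64 ± 0.12, adjusted p = 6.33e-06), while 1 of its 3 probe sets, a dim one, was lower (-0.41 ± 0.14). Chordc1 was 1.81-fold lower (-0.85 ± 0.14, adjusted p = 0.000118) and Stip1 1.59-fold lower (-0.67 ± 0.10, adjusted p = 0.000135). Ahsa1 and Cdc37 did not pass by their brightest probe sets (adjusted p = 0.696 and 0.129). The second probe set of Ahsa1 passed as higher (0.30) and that of Cdc37 as lower (-0.60). Stub1, the ubiquitin ligase CHIP, was higher by 0.18 ± 0.09 (adjusted p = 0.00214) and St13 by 0.20 ± 0.08 (adjusted p = 0.000261), but the other St13 probe sets gave -0.69 ± 0.10 and -0.45 ± 0.06. Hspa8 was lower by 0.41 on the log2 scale (SE 0.09, adjusted p = 0.0218), a call lost without the pool of animals 1 to 3 in any state (adjusted p 0.0511 to 0.0604), and Hsf2 lower by 0.72 (SE 0.18, adjusted p = 0.00912), lost without sleep pool 1 (adjusted p = 0.0503). Bag5, another Bag gene, was lower (-0.58 ± 0.09, adjusted p = 0.000216), while its second probe set gave 0.97 ± 0.17.

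**Figure D4:**
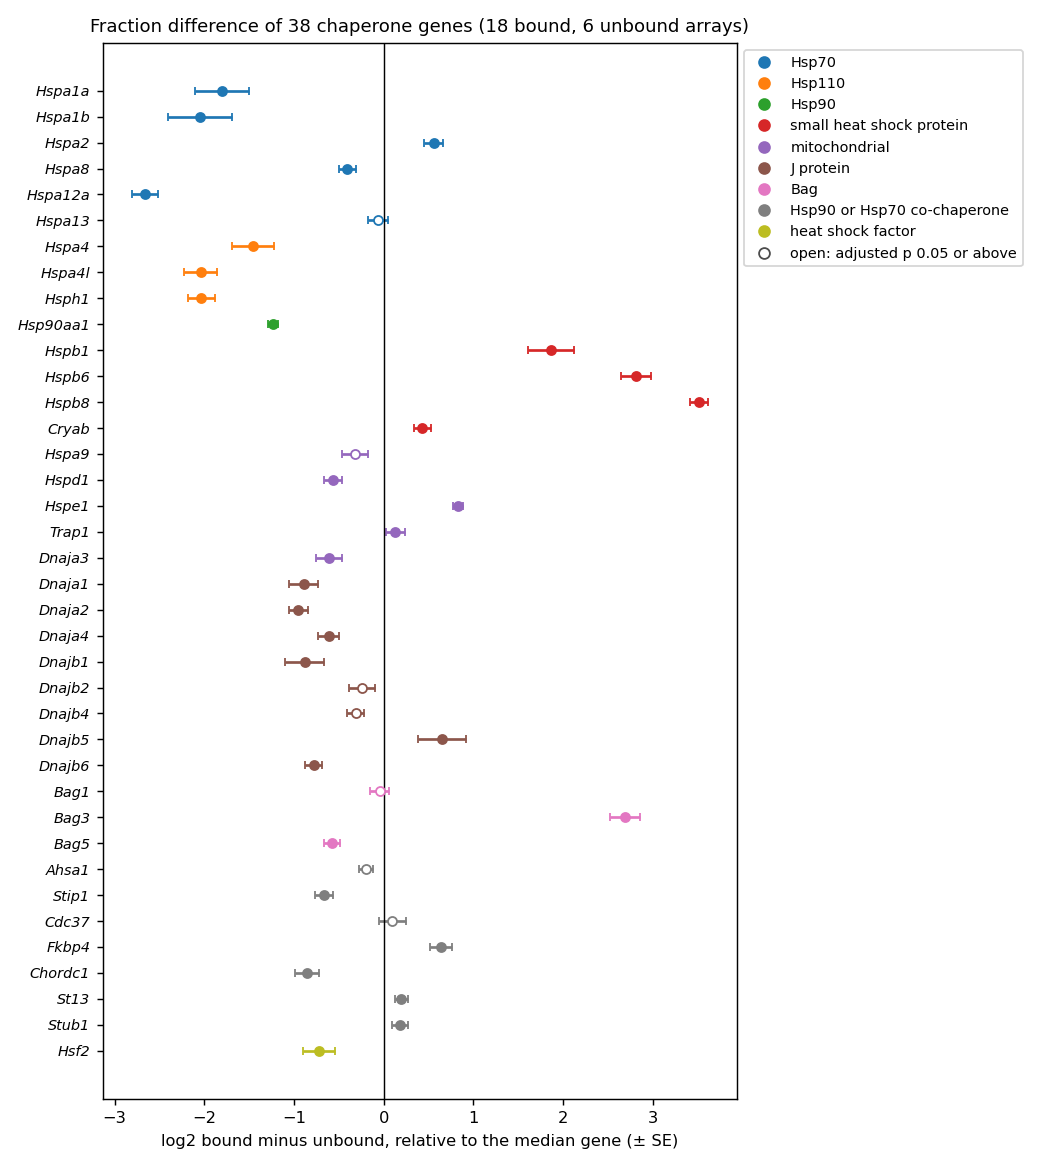
Bound minus unbound difference of each of the 38 chaperone genes (log2, relative to the median gene, horizontal axis), grouped and coloured by role, from 18 bound and 6 unbound arrays. Points are estimates with bars of 1 standard error, filled where the adjusted p is under 0.05. The 4 small heat shock genes and Bag3 lie to the right, with Hspb8 at 3.51, and the 3 Hsp110 genes, Hsp90aa1 and most Hsp70 and J protein genes lie to the left, with Hspa12a at -2.67.

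The wider folding machinery was read from a list of 55 further cytosolic and mitochondrial genes, of which 51 were measured, and from 15 chaperones of the endoplasmic reticulum. In bound waking against sleep 0 of the 51 passed, where 11.2% of all genes did (5 of the 51 and 4211 of all 18193 genes had an unadjusted p under 0.05 in limma). In bound sleep deprivation 4 rose and 0 fell, where 14.3% of all genes passed: Cct5, a subunit of the cytosolic chaperonin (0.24 ± 0.11, adjusted p = 0.0345), the prefoldin subunits Pfdn4 (0.34 ± 0.12, adjusted p = 0.0154) and Pfdn6 (0.19 ± 0.08, adjusted p = 0.0193), and Fkbp5, the glucocorticoid-induced counterpart of Fkbp4 (2.87 ± 0.45). Fkbp4 itself differed by less than its error between states in the bound fraction. Between sleep deprivation and waking in bound samples 2 of the 51 rose (Fkbp5 and Tomm34) and 1 fell (Dnajc21). In the unbound fraction 1 rose in waking (Fkbp5, 0.72 ± 0.20) and 2 in sleep deprivation (Fkbp5, 1.28 ± 0.20, and the mitochondrial nucleotide exchange factor Grpel2), with 0 lower. The chaperones of the endoplasmic reticulum rose in 4 of 15 in bound waking, 3 in bound sleep deprivation, 5 in unbound waking and 1 in unbound sleep deprivation, with 0 lower in each, where 11.2%, 14.3%, 6.32% and 1.87% of all genes passed. They were Dnajc3, Sdf2l1, Manf and Creld2 in bound waking, Hspa5, Dnajc3 and Creld2 in bound sleep deprivation, and Hspa5, Hsp90b1, Pdia6, Dnajb11 and Creld2 in unbound waking. Creld2 was the 1 gene of that list among the risers of all 4 comparisons, at 0.72 ± 0.21 and 0.56 ± 0.21 in the bound fraction and 1.37 ± 0.17 and 1.36 ± 0.17 in the unbound fraction. Between the fractions, 19 of the 51 were higher and 21 lower in bound samples, where 42.2% of all genes were higher and 27.2% lower. The chaperonin and prefoldin genes were lower in 8 of 14 and higher in 4, and the mitochondrial proteases and their partners higher in 6 of 7 and lower in 1.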

How the data were processed

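Cortex RNA of 18 bound and 6 unbound samples was read on Affymetrix mouse genome arrays. The deposited log2 values are RMA values per the submitters' processing notes; the version, and which arrays were normalized together, are not given in the sources used here. The table held 45101 probe sets. After 64 controls, 34945 had 1 gene symbol, 932 several and 9160 none. Named genes were all members, and listed pathway genes past the test; members, lists and comparisons were chosen with earlier results of these data known.

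State comparisons used the 18 bound or 6 unbound arrays, the others all 24 in 6 groups (limma 3.58.1, R 4.3.3), tested on simulated data. The main fits had no block. Replicate numbers paired the bound arrays by the correlation of their residuals (0.268 to 0.530 in 18 of 18 pairs, and -0.287 to 0.127 once the split of animals 1 to 3 and 4 to 6 was removed) but not the unbound pools (0.001 to 0.029), and the labels name no shared batch. The number of arrays limits the precision. Figures used matplotlib 3.10.9. Alternatives are given under the closing section.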

Additional observations from a re-analysis of the deposited data

Results flagged for a closer look

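One array stood apart from its group. Hspa13, a gene of an Hsp70 relative of the microsomes, lay at 8.19 in bound waking animal 6, with the next of the other 5 waking arrays at 7.67. It was the 1 such array among 114 combinations of a member and a group of 6 arrays, where chance alone flags about 1 in 20.

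The effects of state on 3 genes differed between the fractions, before the median gene was taken off. The waking effect in bound minus that in unbound samples was -0.91 for Cryab, -0.48 for Hspe1 and -0.67 for St13, and the effect of sleep deprivation was 0.57 for Hspe1.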

How the results depend on the processing

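Members past the test numbered 3, 5 and 1 in bound waking against sleep, bound sleep deprivation against sleep and bound sleep deprivation against waking, and 5, 0 and 1 in the same unbound comparisons. They numbered 31 in bound against unbound, 3 for the waking effect between fractions and 1 for the sleep deprivation effect between fractions. The replicate block gave 11 and 14 for the bound comparisons with sleep, 0 for unbound waking, 0 for unbound sleep deprivation against waking and 5 for the waking effect between fractions. The block of animals 1 to 3 and 4 to 6 gave 12 and 13. With dim genes left out, bound waking gave 1, bound sleep deprivation against waking 0, unbound waking 3, unbound sleep deprivation against waking 0 and both effects between fractions 0. With the mean of a gene's probe sets, the bound counts were 9, 10 and 0, and the unbound ones against sleep 8 and 1. Centring each array on its median gave 1, 3 and 0 in the bound fraction and 0 for unbound waking, unbound sleep deprivation against waking and the waking effect between fractions. Array weights gave 6 for bound waking, 0 for unbound sleep deprivation against waking and 5 for the waking effect between fractions. Fitting all 24 arrays together gave 5 for bound waking, 2 for unbound sleep deprivation and 0 between the waking states in bound arrays. Animals 1 to 3 alone gave 0 for sleep deprivation against waking in bound arrays, and animals 4 to 6 alone gave 2 for bound sleep deprivation against sleep and 0 against waking. Repeating the quantile normalization over all arrays gave 0 for unbound waking, unbound sleep deprivation against waking and the waking effect between fractions. Joined with the replicate block, an alternative chosen after seeing the data, it gave 5 for bound waking and 9 for bound sleep deprivation. An intensity trend gave 19, 12 and 3 in the unbound fraction. Averaging the bound arrays per pool gave 0 for both effects between fractions, and the sleep arrays alone gave 20 for bound against unbound. Leaving out 1 array at a time gave 2 to 4, 4 to 6 and 0 to 1 in the bound fraction, 0 to 0 in each unbound comparison, 29 to 31 for bound against unbound and 0 to 4 and 0 to 1 for the effects between fractions. With the mean of a gene's probe sets, the bound minus unbound difference reversed for Bag5 (0.32), Dnajb5 (-0.21) and St13 (-0.21), whose probe sets point in opposite directions. The cause of the other shifts was not tested. Having 2 pools a state limits what the unbound fraction can show, as does signal near the median for genes such as Hspa1b in bound arrays.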
